A study of Mustela putorius furo with 10 samples.

Results

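The PIAS ligases and SENP proteases of the SUMO pathway were examined in peripheral blood mononuclear cells (PBMC) of ferrets kept in the cold and at room temperature. The set comprised 9 genes, PIAS1 to PIAS4 and the SENP proteases SENP1, SENP2, SENP5, SENP6 and SENP7. Each was looked up by the ferret gene name that RefSeq gives to the transcript accession of an array sequence. Of the 9 genes, 5 were matched, PIAS1, PIAS2, PIAS3, SENP5 and SENP7, through 13 of the 45328 target sequences on the array. PIAS4, SENP1, SENP2 and SENP6 were not matched and are not analysed here. After a filter on dim probes 4 of the 5 matched genes could be tested, and PIAS2 was below that filter. In all 26303 features were tested, 9276 genes with a symbol and 17027 target sequences that the gene table does not name and that stand as 1 feature each. Several such sequences can belong to 1 gene, and shares of all genes given below are over this mix. At an unadjusted p under 0.01 these were 8.57% of the named genes and 8.68% of the unnamed sequences.

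SUMO is a small protein that is joined to lysines of other proteins, by a cascade of an activating enzyme, a conjugating enzyme and ligases that speed the transfer to particular substrates. PIAS proteins (protein inhibitors of activated STAT) are such ligases, and were first known as proteins that bind STAT transcription factors, which carry cytokine signals to the nucleus of blood cells, and hold back their activity. SENP proteases cut SUMO off its substrates, and some of them also mature the SUMO precursor or trim chains of SUMO, so that the level of modification is set by both families.

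Male ferrets aged 3 months were held for 1 week at 4 °C, housed individually (cold), or at a room temperature of 22 °C (control), and how the control animals were housed is not stated in the sources used here. PBMC were separated on Ficoll from heparinised heart blood taken under ketamine and medetomidine, and their RNA was hybridised to 1 array per animal, with 6 control and 4 cold arrays. The cold group was smaller because PBMC were hard to obtain from some of its animals. RNA of the ferret carried the green dye Cy3, and a common reference pool, of PBMC mixed with other ferret tissues, carried the red dye Cy5. The log2 ratio of Cy3 to Cy5 is therefore positive where the ferret's PBMC held more of a transcript than the pool, on a scale that loess normalization set to about 0 over all probes of an array. The reference was unevenly bright, with 27.0 to 64.0% of its spots well above background per array, against 50.4 to 63.5% of the Cy3 spots. For that reason the Cy3 channel was also compared on its own, as quantile normalized log2 intensity.

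Cold-exposed and control ferrets did not differ beyond the adjusted threshold in any of the 4 PIAS and SENP genes of the set that were tested. SENP3 and SENP8, outside the set, are given with the other proteases below. With limma, 0 of the 4 genes tested had a Benjamini-Hochberg adjusted p under 0.05, as did 0 of all 26303 features (0%). At an unadjusted p under 0.05 there was 1, SENP5, whose ratio was lower in cold, by limma and by the methods' t-test alike, while 24.7% of all genes passed that limma threshold. At an unadjusted p under 0.01, the threshold of the study, there were 0 of 4 members against 8.64% of all genes. The median change of the 4 genes was -0.07 on the log2 ratio scale, and that of all genes tested was -0.01. In the Cy3 channel alone all 4 were lower, as were 57.1% of all genes. PIAS1 and SENP5 are also genes that the study had picked out on these arrays, SENP5 through its sequence XM_004745326, so their directions here are no independent evidence. By RT-qPCR the study also reported lower PIAS1 in PBMC of cold animals. It reported a trend the same way in retroperitoneal fat and none for PIAS1 in liver.

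Among the ligases, PIAS1, which also restrains cytokine-driven transcription, was detected on every array. All of its Cy3 spots were well above background on the 10 arrays, and 62.5 to 100% of its Cy5 spots. Its log2 ratio in the 6 controls was at lowest 0.23, at median 0.40 and at highest 0.46. In the 4 cold arrays it was 0.45, 0.07, 0.26 and 0.23. Cold replicate 1 lay among the highest controls, cold replicate 3 in the lower part of their range and the other two below every control, so the groups overlapped. The cold mean of 0.25 ± 0.15 (SD, n = 4) was lower than the control mean of 0.37 ± 0.08 (SD, n = 6) by a log2 value with an SE of 0.09 (change -0.12, 95% confidence interval -0.31 to 0.07). This difference did not pass in limma (p = 0.183, adjusted p = 0.399) or in the two-sided exact permutation test over the 210 splits of the arrays (p = 0.138, where 0.00476 is the smallest possible). Without cold replicate 1 the change was -0.19 and passed the unadjusted 0.05 level, and without cold replicate 2 it was -0.06.

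In the Cy3 channel alone the PIAS1 groups were further apart. Its log2 Cy3 intensity in the controls was at lowest 11.12, at median 11.22 and at highest 11.26. In the cold arrays it was 11.16, 10.68, 10.64 and 10.84. The last 3 of these lay below every control, by more than the controls' whole range, and cold replicate 1 lay within that range. The change was -0.38 with an SE of 0.10 on this scale (limma p = 0.00370, adjusted p = 0.0696; two-sided exact permutation p = 0.00952), past the unadjusted threshold of 0.01 that 9.84% of all genes passed in Cy3 alone, but not past the adjusted one, which 2.82% of genes passed. Leaving out each array in turn gave PIAS1 Cy3 changes from -0.48 to -0.31. The unadjusted limma p was no longer under 0.01 without cold replicate 2 or without cold replicate 3, at changes of -0.33 and -0.31. Without cold replicate 1 the change was -0.48 and passed the adjusted threshold (limma, adjusted p = 0.0252). The same gene's Cy5 intensity, which comes from the pool, differed between the groups by -0.03 (limma, adjusted p = 0.858).

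PIAS3, known as an inhibitor of STAT3, was also detected in all Cy3 spots of the 10 arrays. Its log2 ratio in the controls was at lowest -0.60, at median -0.30 and at highest -0.13. The cold arrays had -0.00, -0.51, -0.06 and -0.21. Cold replicates 1 and 3 were above every control, cold replicate 2 was below 5 of the 6, and the groups overlapped. The change was 0.13 with an SE of 0.12 (95% confidence interval -0.13 to 0.40; limma, adjusted p = 0.514; two-sided exact permutation p = 0.300), and in Cy3 alone it had the other sign, -0.07 (limma, adjusted p = 0.745), so that no direction can be given for PIAS3.

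PIAS2, a ligase that acts as a coregulator of steroid hormone receptors, was near background. It has 1 target sequence and 4 probes, read as 8 spots per array, and Cy3 was well above background in 3 of its 48 control spot readings and 0 of its 32 cold ones. The median Cy3 brightness of its spots was 108 to 141 on the control arrays and 113 to 125 on the cold arrays. No probe of PIAS2 passed the filter, and no fold is given for it.

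Of the proteases, SENP5, which acts in the nucleolus and prefers the SUMO2 and SUMO3 forms, was the member whose ratio differed most between the groups relative to its spread. Its log2 ratio in the controls was at lowest -0.20, at median 0.07 and at highest 0.15. In the cold arrays it was -0.13, -0.10, -0.29 and -0.37. All 4 cold arrays were below the control median, and 2 of them were below every control, while control replicate 3 lay among the cold values. The cold mean of -0.22 ± 0.13 (SD, n = 4) stood against a control mean of 0.02 ± 0.14 (SD, n = 6), a change of -0.24 with an SE of 0.09 (95% confidence interval -0.45 to -0.04). This passed the unadjusted 0.05 level and not the adjusted one (limma p = 0.0255, adjusted p = 0.153; two-sided exact permutation p = 0.0238). Without control replicate 3 the change was -0.29 and passed the unadjusted threshold of 0.01 in limma, but not the adjusted one (adjusted p = 0.140). Without control replicate 1 or 6, or cold replicate 3 or 4, it no longer passed even the unadjusted 0.05 level, at changes of -0.23, -0.21, -0.22 and -0.19, nor did it with the replicate number as a block (-0.23).

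In Cy3 alone the change of SENP5 was -0.19 with an SE of 0.09 (limma, adjusted p = 0.199; two-sided exact permutation p = 0.0381), while the Cy5 intensity of the same probes differed by 0.12 (limma, adjusted p = 0.639). Neither passed the adjusted threshold, and the scales of the channels and of the ratio were normalized separately. The reference was dim for SENP5 on some arrays. Of the Cy5 spots of the 8 probes kept, 0 to 100% were well above background on the control arrays (median 40.6%) and 75.0 to 100% on the cold arrays (median 100%). This brightness of the reference moved with the groups, and its part in the SENP5 result was not tested.

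SENP7, which trims SUMO2 and SUMO3 chains and is found at chromatin, showed no difference between the groups beyond its spread. Its log2 ratio in the controls was at lowest -0.25, at median 0.02 and at highest 0.19. The cold arrays had -0.07, -0.25, 0.42 and -0.28. Cold replicate 3 was the highest of the 10 arrays and cold replicate 4 the lowest, so the cold group spanned the whole control range. The change was -0.01 with an SE of 0.15 (limma, adjusted p = 0.978; two-sided exact permutation p = 0.957), and its 95% confidence interval, -0.33 to 0.31, leaves room for a moderate change in either direction. SENP7 was also the most variable member. In Cy3 its 6 controls ran from 8.43 to 9.42, a 1.98-fold range, and 89.8% of all genes had a smaller residual SD in that channel, against 31.8% for PIAS1 and 12.3% for SENP5.

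**Figure D1:**
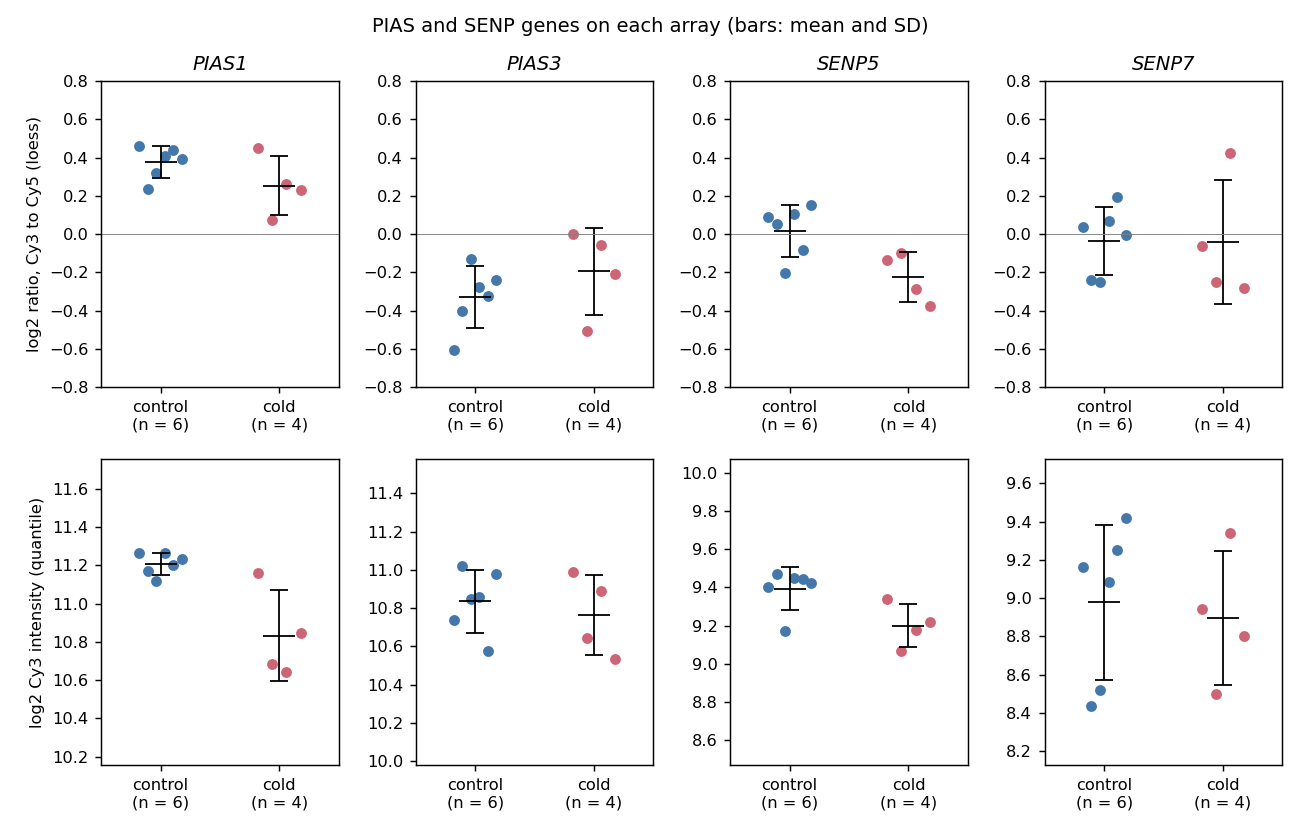
PIAS1, PIAS3, SENP5 and SENP7 on each of the 10 arrays, as the loess normalized log2 ratio of Cy3 to Cy5 (upper row) and as quantile normalized log2 Cy3 intensity (lower row, each axis spanning the same log2 range). Points are arrays, bars the mean and SD of 6 control and 4 cold arrays. In the lower row, 3 of 4 cold arrays of PIAS1 sit below all controls; in the upper row all 4 cold arrays of SENP5 sit below the control median, and the groups overlap in every panel.

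Several transcripts of a gene were represented on the array, each by 4 probes. The target sequences of one gene are transcript variants and may share most of their length, so they are not independent measurements. SENP5 had 3 target sequences. For XM_004745326, the log2 ratio in the controls was at lowest -0.07, at median 0.06 and at highest 0.23. In the cold arrays it was -0.20, -0.17, -0.29 and -0.25. All cold values lay below all control values. Over the 26303 features, in which the sequences of a named gene are averaged, 5.22% had no overlap in either direction. That share over single target sequences is not given here. The change was -0.29 with an SE of 0.08 (limma over 32400 target sequences, adjusted p = 0.0876; two-sided exact permutation p = 0.00476, the smallest possible). Its unadjusted limma p was under 0.01, and 8.59% of all sequences were under that level. It stayed under 0.01 with each array left out in turn, with changes from -0.32 to -0.26. In Cy3 alone its change was -0.19 and the groups overlapped. For XM_004745325 the ratio change was -0.19 (limma, adjusted p = 0.350; two-sided exact permutation p = 0.162), and the groups overlapped, with control replicate 3 at -0.34 and cold replicate 4 at -0.50, while its Cy3 change was -0.20. The difference between these 2 sequences was not tested. The remaining sequence, XM_004745327, was near background: 1 of its probes had Cy3 above background on 2 arrays and the other 3 probes on none.

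**Figure D2:**
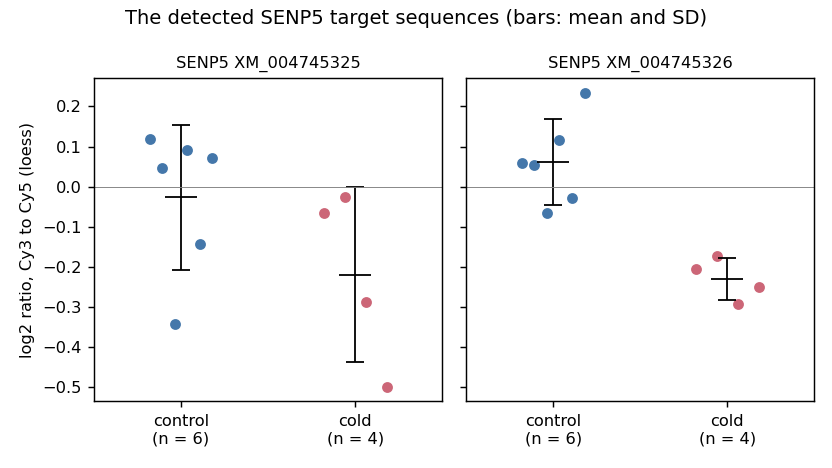
Log2 ratio of Cy3 to Cy5 on each array for the SENP5 target sequences that passed the filter. Points are arrays, bars the mean and SD of 6 control and 4 cold arrays. The groups are apart for XM_004745326 (change -0.29) and overlap for XM_004745325 (change -0.19), while in Cy3 alone the changes were -0.19 and -0.20.

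The sequences of each other gene gave like values. PIAS1 had 2, with ratio changes of -0.11 (XM_004758612) and -0.13 (XM_004758614) and Cy3 changes of -0.39 and -0.36. PIAS3 had 2, with ratio changes of 0.14 and 0.13. The 5 of SENP7 ran from -0.09 to 0.06, on both sides of 0.

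The ratio and the Cy3 channel also differed at single probes. All 8 PIAS1 probes were lower in cold in Cy3, by -0.43 to -0.25. In the ratio 6 were lower and 2 higher, from -0.32 to 0.13. The 2 that were higher, 1 in each sequence (0.13 and 0.01), were those whose reference was dimmest, with Cy5 above background on 5 and 6 of the 10 arrays, and the other 6 probes on all 10. At those 6 probes too the Cy3 change was further below 0 than the ratio change, such as -0.35 against -0.10 and -0.43 against -0.32. The part of the dim reference in these differences was not tested. All 8 SENP5 probes kept were lower in cold in both scales, by -0.37 to -0.02 in the ratio and by -0.31 to -0.13 in Cy3.

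For PIAS3 all 8 probes were higher in the ratio, by 0.01 to 0.24. In Cy3 alone 2 of its probes, 1 in each sequence, stood apart at -0.40 and -0.48, and the other 6 lay between -0.04 and 0.16. Of the 20 SENP7 probes, 10 were lower and 10 higher in the ratio, and 19 were lower in Cy3, where none was beyond -0.16.

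**Figure D3:**
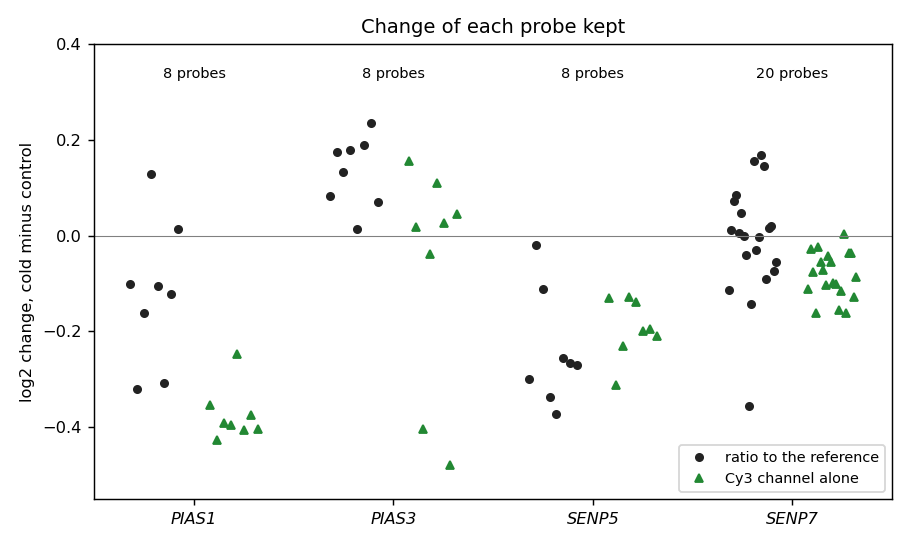
Log2 change, cold minus control, of each probe that passed the filter, in the ratio to the reference (circles) and in the Cy3 channel alone (triangles). All 8 PIAS1 probes are below 0 in Cy3 and 6 of 8 in the ratio, all 8 SENP5 probes are below 0 in both, and the PIAS3 probes lie above 0 in the ratio with 2 far below 0 in Cy3.

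The size of the changes depended on how the arrays were scaled. PIAS1 was lower in cold in all 25 alternatives run, from -0.97 to -0.06, and SENP5 in all 25, from -0.73 to -0.18. The PIAS1 change was -0.30 with the scanner software's own processed intensities and -0.53 in the value table that the authors deposited (limma, adjusted p = 0.239). In the same settings the SENP5 change was -0.58 (-0.48 relative to all genes) and -0.38 (-0.39 relative to all genes). When each array was centred on its median ratio in place of loess, PIAS1 was at -0.97 and SENP5 at -0.73 (limma, adjusted p = 0.164 for both). The unadjusted p of PIAS1 was under 0.01 in the deposited table and, like that of SENP5, under median centring. Of all 26303 genes, 1093 were under that level in the deposited table and 1163 under median centring. That centring placed the median of all genes at -0.43, so that relative to all genes the 2 changes were -0.55 and -0.31. In the deposited table, the methods' t-test over target sequences put both PIAS1 sequences (changes of -0.53 and -0.54) and 1 SENP5 sequence, XM_004745326 (-0.44), under an unadjusted p of 0.01, as it did 3.21% of all sequences. PIAS3 was higher in the loess ratio (0.13) but lower in the deposited table (-0.21), in Cy3 alone (-0.07) and under median centring (-0.65, or -0.22 relative to all genes). Relative to all genes, SENP7 was between -0.06 and 0.02 in these settings.

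**Figure D4:**
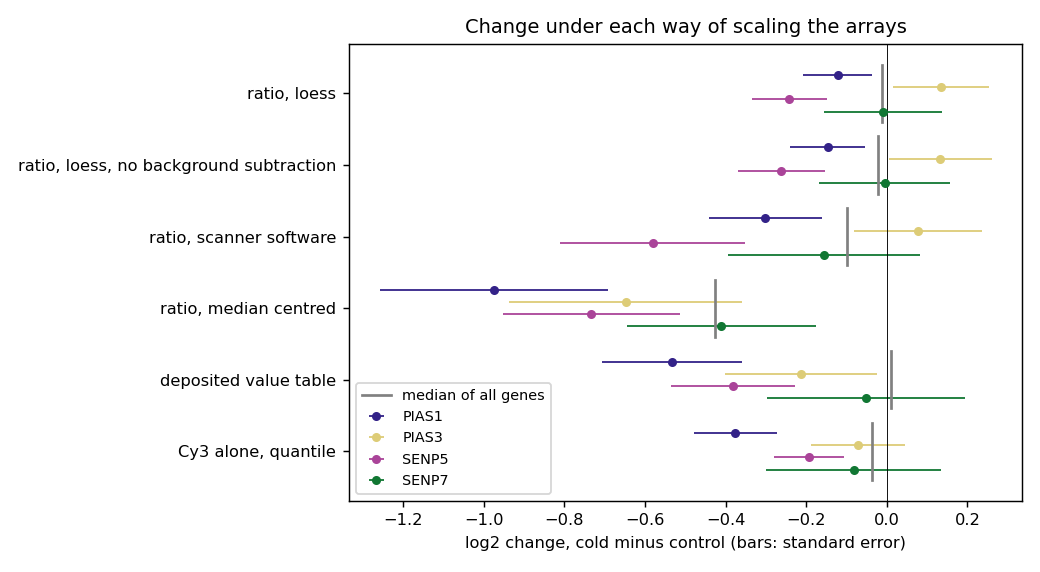
Log2 change, cold minus control, of the 4 PIAS and SENP genes under 6 ways of scaling the arrays, with standard errors as bars and the median of all genes as a grey line. PIAS1 and SENP5 are left of that median in each setting, PIAS3 lies on either side of it, and median centring moves all genes to about -0.43.

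The rest of the SUMO pathway was divided in the ratio and mostly lower in Cy3. Of 33 other SUMO genes listed, 20 were matched and 18 tested, and 10 of them had a lower and 8 a higher ratio in the cold arrays (median change -0.07), where 52.0% of all genes were lower. This list takes in SENP8, a protease of the related modifier NEDD8. In Cy3 alone 14 of the 18 were lower and 4 higher (median -0.11), where 57.1% of all genes were lower and the median was -0.04. At an unadjusted p under 0.01 there was 1 gene, lower, beside 3.43% of all genes that were lower at that level. In Cy3 alone there was none. This count, which came from the SUMO substrates, was 3 without cold replicate 2 and 3 with array weights. It was 2 with the replicate number as a block, 2 with the scanner software's intensities, 2 with the median over probes, where the added gene was another ligase, and 0 at slide position 2 alone. All genes under 0.01 in either direction numbered 2273 of 26303 in the main setting, 2892 with array weights and 2459 with the replicate block. They numbered 1505 with the scanner software's intensities, 2262 with the median over probes and 1275 to 3381 with 1 array left out. Slide position 2 held only control replicates 3 and 5 and cold replicates 3 and 4, so the 0 there cannot be told from the loss of arrays. The activating enzyme of SUMO is a pair of subunits, and neither passed: SAE1 had a change of 0.16 with an SE of 0.10 (limma, adjusted p = 0.335), and UBA2, the catalytic subunit, -0.21 with an SE of 0.10 (limma, adjusted p = 0.228). Their opposite signs held in the ratio and not in Cy3 alone, where SAE1 was at -0.04 and UBA2 at -0.34.

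SATB1, a chromatin organiser of T cells that is a known partner and substrate of PIAS1, was the gene under 0.01. Its log2 ratio in the controls was at lowest -0.41, at median -0.25 and at highest -0.06. In the cold arrays it was -0.71, -0.61, -0.99 and -0.58. The groups did not overlap, and the change was -0.47 with an SE of 0.10 (limma, adjusted p = 0.0706; two-sided exact permutation p = 0.00476), with -0.54 in Cy3 alone, where its unadjusted p was under 0.05 and not under 0.01. Its ratio stayed under the unadjusted 0.01 with each array left out in turn, at changes from -0.52 to -0.38. NSMCE2, the SUMO ligase of a complex that maintains chromosome structure, is named here because its groups did not overlap either, a choice made after its values were seen. Together these are 2 of 18 genes, beside 5.22% of all genes without overlap. Its log2 ratio was 0.05 to 0.28 in the controls and 0.29 to 0.48 in the cold arrays (change 0.19; limma, adjusted p = 0.168).

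Of the substrates and parts of PML bodies, the nuclear dots in which SUMO is concentrated, 3 of the 5 tested were lower and 2 higher, with 3 lower and 1 higher at an unadjusted p under 0.05, a level that 24.7% of all genes passed. Named here after their values were seen, these were SATB1, RANGAP1 (-0.45), the nuclear pore protein whose SUMO form is abundant, and DAXX (-0.29), a corepressor of PML bodies, on the lower side and SP100 (0.30), a scaffold of those bodies, on the higher side. In Cy3 alone all 5 were lower, 4 of them at an unadjusted p under 0.05 (24.8% of all genes), so that SP100 (-0.21) and PML (0.06 in the ratio, -0.34 in Cy3) turned sign. The other ligases numbered 5, with 2 lower and 3 higher, and the other SUMO and NEDD8 proteases 3, with 1 lower and 2 higher. SENP3 and SENP8 are named here as SENP genes outside the set. SENP3 was at 0.13 (limma, adjusted p = 0.276; two-sided exact permutation p = 0.0238), with 0.05 in Cy3 alone. SENP8 was at -0.12 (limma, adjusted p = 0.446; two-sided exact permutation p = 0.219), with -0.14 in Cy3 alone. Both SUMO-targeted ubiquitin ligases and readers tested were lower, with a median of -0.12, and neither was under 0.05.

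The STAT pathway, which PIAS proteins restrain, was tested through 14 of the 18 genes listed, and the ratio was lower in cold for 4 and higher for 10 (median 0.07), where 52.0% of all genes were lower. In Cy3 alone 8 were lower and 6 higher (median -0.04), a share lower equal to the 57.1% of all genes. At an unadjusted p under 0.01 there was 1 of the 14, beside 8.64% of all genes, and 1 of the 14 without overlap, beside 5.22%. Both were PTPN11, which encodes a phosphatase of cytokine signalling. Its log2 ratio in the controls was at lowest -0.29, at median -0.23 and at highest -0.16. In the cold arrays it was -0.58, -0.37, -0.35 and -0.52. The groups did not overlap, and the change was -0.23 with an SE of 0.07 (limma, adjusted p = 0.110; two-sided exact permutation p = 0.00476), but in Cy3 alone it was -0.05. With each array left out in turn, PTPN11 was under the unadjusted 0.01 in 2 of 10 fits, those without cold replicate 2 or 3, with changes of -0.27 to -0.19 over the 10. The count of STAT genes under 0.01 was 0 with the scanner software's intensities, no background subtraction, median centring, Cy3 alone, the deposited table, either stricter filter on dim probes or either slide position alone. It was 2 with array weights, 3 with the median over probes and 0 to 2 with 1 array left out, with 2 without cold replicate 2. All genes under 0.01 numbered 2892 of 26303 with array weights and 2262 with the median over probes, beside 2273 in the main setting. With 1 array left out they ran from 1275 to 3381. Each slide position held only a part of the arrays, so a count of 0 there cannot be told from the loss of arrays. A further 2 genes of this list were higher at an unadjusted p under 0.05, which makes 3 of 14 in all beside 24.7% of all genes, JAK2 (0.42), a receptor-bound kinase, and SOCS3 (0.47), a feedback inhibitor of STAT3, both named after their values were seen. In Cy3 alone neither passed that level (0.30 and 0.49), and the 1 STAT gene that did was JAK1, a kinase of the same family, which was lower (-0.20).

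**Figure D5:**
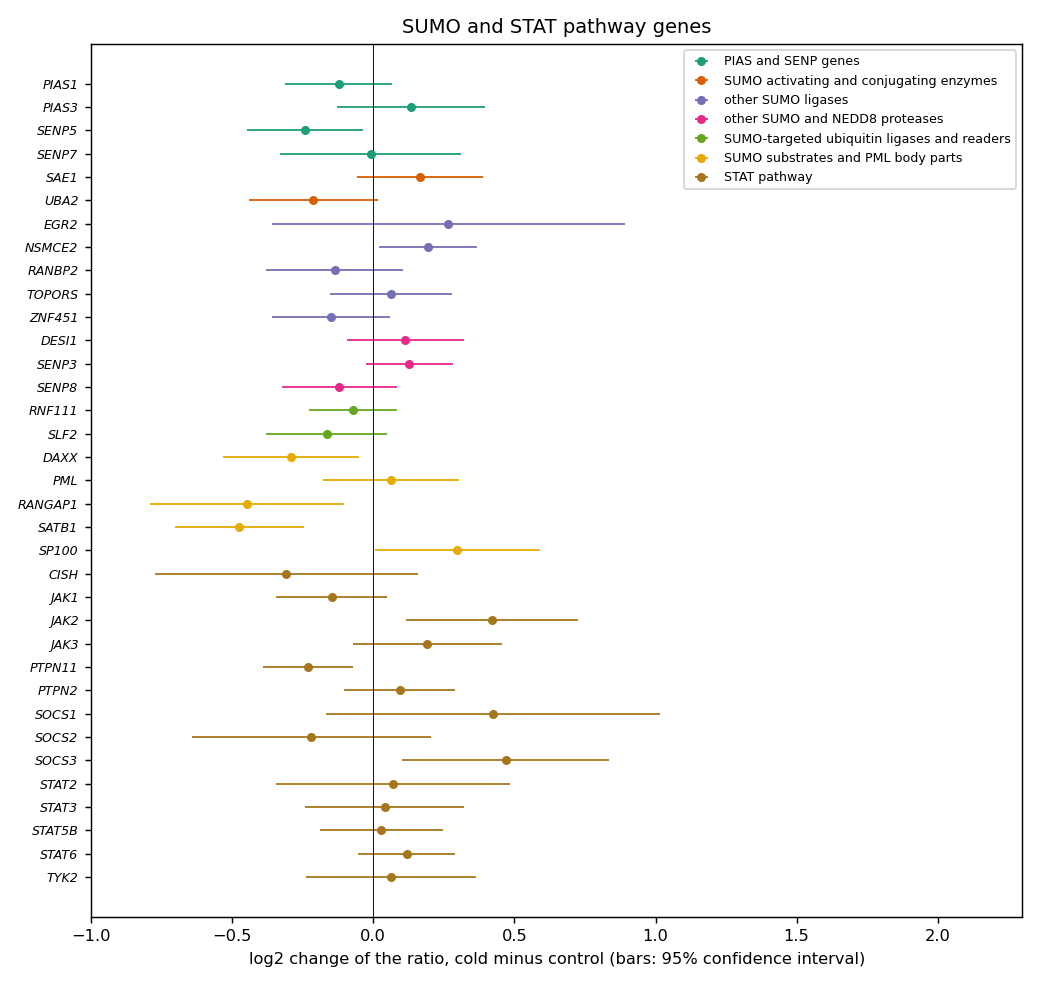
Log2 change of the ratio, cold minus control, for the 4 PIAS and SENP genes, the other SUMO genes reported here and 14 STAT pathway genes, coloured by list, with 95% confidence intervals. SATB1 (-0.47) and PTPN11 (-0.23) are those with an unadjusted p under 0.01; most intervals include 0.

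The cell types of PBMC were represented in the RNA: all 9 T cell, 6 of 7 B cell and all 7 monocyte markers matched were above the filter. Markers of blood cell types also moved with the groups. PBMC are a mixture, and in such bulk RNA fewer cells of a type and less RNA per cell cannot be told apart. Of 9 T cell markers 8 were lower in cold, with a median change of -0.56, and their mean log2 ratio per array ran from 0.08 to 0.39 in the controls. In the cold arrays it was 0.10, 0.01, -0.74 and 0.02, so that only cold replicate 3 lay far below the controls. Monocyte markers were higher in 6 of 7, with array means of 0.04 to 0.67 against 0.72 to 1.37. All 4 neutrophil and all 5 platelet markers were higher (0.42 to 1.16 against 0.99 to 1.72, and -0.04 to 1.54 against 0.99 to 2.14), and 4 of 5 erythroid markers lower (0.05 to 0.84 against -0.76 to -0.11). B cell markers (5 of 6 lower) and cytotoxic cell markers (1 of 3 lower) overlapped widely between the groups. Cold replicate 3, which had the lowest T cell mean (-0.74), also had the lowest PIAS1 Cy3 intensity, the lowest SATB1 ratio and the highest SENP7 ratio. Cold replicate 2, with a T cell mean of 0.01, had nearly the same PIAS1 Cy3 intensity. The part of these markers in the results of PIAS1, SENP5 and SATB1 was not tested.

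No pair of members varied closely together. Over the 10 arrays, which share the reference pool and the normalization, Pearson's r between the ratios of pairs of members ran from -0.52 (PIAS3 with SENP5) to 0.43 (PIAS1 with SENP7). Among all named genes, the 3 whose ratio followed PIAS1 most closely included PUM2 (r = 0.85) and RESF1 (r = 0.83), and within groups these were 0.84 and 0.77. For SENP5 the 3 were SMARCE1 (r = 0.97), TTBK2 (r = 0.96) and MRPS9 (r = 0.95), with 0.94, 0.92 and 0.91 within groups. In Cy3 alone the same r values were 0.72 and 0.68 for PIAS1 and 0.67, 0.92 and 0.76 for SENP5. They are the highest over all named genes tested, from few arrays, and are given as a description.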

How the data were processed

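PBMC RNA of 6 control and 4 cold ferrets was measured on 10 Agilent 2-colour arrays. The authors deposited spot intensities of both channels as written by the scanner software, with flags, and 1 log2 value per target sequence and array in a table. Within a sequence, the deposited log2 value equalled mean log2 Cy3 minus mean log2 Cy5, with no background subtracted, up to a constant per array and per sequence; its array medians were 7.87 to 8.78, its direction was Cy3 over Cy5, and how its constants were set is not given in the sources used here. Median spot intensities were corrected with normexp (offset 50) and normalized by loess (span 0.3, 4 iterations) in limma 3.58.1 (R 4.3.3). Spots were averaged per probe, then probes per gene. Probes whose Cy3 was well above background (in a share of 0.5 or more of the spots) on fewer than 4 arrays were left out. Names came from a RefSeq ferret gene table, with 12918 genes named. Groups were compared with lmFit and eBayes and Benjamini-Hochberg adjustment over 26303 features, of which 9276 were named genes and 17027 unnamed target sequences, each counted as 1 gene. No slide held more than 1 of these arrays. The replicates are separate animals, and their number limits the precision.

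Named are all members found, each other SUMO or STAT gene under an unadjusted p of 0.01, the SUMO modifiers and activating enzymes whatever their p, and the 3 named genes most like PIAS1 and SENP5. Members and lists were chosen with earlier results of these data known. A few genes that these rules name are part of the counts, and their values are not reported here. The test was also run on simulated data, and the outcome of that check is not reported here. The alternatives were the scanner software's processed intensities, no background subtraction, median centring, Cy3 alone, the deposited table, other filters on dim probes, the median over probes, target sequences, the methods' t-test, array weights, a block for slide position or for replicate number, and the omission of single arrays. The RT-qPCR, liver and adipose tissue data were not analysed here.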

Additional observations from a re-analysis of the deposited data

How the results depend on the processing

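No member passed an adjusted p under 0.05 in limma in any alternative that changed 1 choice. With Cy3 alone and cold replicate 1 left out, a pair of choices tried after seeing the data, PIAS1 did (adjusted p = 0.0252). At an unadjusted p under 0.01, where there was none, the count became 2 with median centring (PIAS1 and SENP5), 1 with Cy3 alone and 1 with the deposited table (PIAS1 in both), 1 without the filter on dim probes (PIAS2), 1 with target sequences as features (SENP5), and 0 to 1 when each array was left out, the 1 being SENP5 without control replicate 3. Of all 26303 features, 2273 passed that level in the main setting, 1163 with median centring, 2587 with Cy3 alone and 1093 with the deposited table. Without control replicate 3 the number was 1803. Without the filter 2579 of 37142 features passed, and 2784 of 32400 target sequences did. PIAS3 changed sign with median centring (-0.65), Cy3 alone (-0.071) and the deposited table (-0.21), and SENP7, which was near 0, with the median over probes (0.0065) and within slide position 2 alone (0.10). With each array left out, the change ran from -0.19 to -0.06 for PIAS1, from 0.07 to 0.24 for PIAS3, from -0.29 to -0.19 for SENP5 and from -0.16 to 0.071 for SENP7. Within slide positions 1 and 2, a split chosen after seeing the data, PIAS1 was at -0.11 and -0.13 and SENP5 at -0.22 and -0.19. The cause of these shifts was not tested.

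The replicate numbers did not pair the arrays: samples of the same number deviated together (r above 0.1) in 1 of 4 pairs. With the replicate number as a block, the changes were -0.10 for PIAS1, 0.16 for PIAS3, -0.23 for SENP5 and 0.055 for SENP7, with no member under 0.01. Over all genes, the count at an adjusted p under 0.05 was 0, but it was 741 in Cy3 alone and between 0 and 1263 with 1 array left out (1263 without cold replicate 2), and the count at an unadjusted p under 0.01 ran from 1275 to 3381 with 1 array left out. The dim reference limits the ratios of SENP5 and SENP7, whose Cy5 spots were mostly at background on some control arrays.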
